A study of Mus musculus with 16 samples.

Results

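The MAP kinase phosphatases of the DUSP family were taken as 10 genes, chosen with earlier results of these data known. They were Dusp1, Dusp2, Dusp4, Dusp5, Dusp6, Dusp7, Dusp8, Dusp9, Dusp10 and Dusp16, matched by symbol to the 45706 gene rows of a count table. All 10 were found and all 10 passed the filter on low counts, among 21526 genes that did. The table came from RNA-seq of ear skin of 8 male C57BL/6J mice without a transgene or treatment named in the labels, each biopsied once at 24 months (label ages 23.8 to 24.4, called young) and again at 30 months (29.0 to 30.1, called old), giving 16 libraries. The second clip was cut from the other ear, 5.0 to 6.3 months after the first, so age, biopsy order and ear cannot be told apart. The family was chosen with the comparison of these ages in view, so its differences between the ages are given as a description with no test.

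MAP kinases (ERK, JNK and p38) pass signals from growth factors, cytokines and stress to the nucleus, and they are active only while a threonine and a tyrosine in their activation loop carry phosphate. The dual-specificity MAP kinase phosphatases remove both phosphates. They differ in place and preference: Dusp1, Dusp2, Dusp4 and Dusp5 are nuclear and induced by the signals they end, Dusp6, Dusp7 and Dusp9 are cytoplasmic and prefer ERK, and Dusp8, Dusp10 and Dusp16 prefer JNK and p38. In skin, ERK signalling is known for its part in keratinocyte growth and wound closure, and p38 and JNK for responses to ultraviolet light and inflammation.

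RefSeq promoter entries (GRCm38.p6) were found for 8 of the 10 members, not for Dusp4 and Dusp9. The bases before the annotated start are shown for Dusp1, the member with the largest difference between the ages, for Dusp5 and Dusp8, the other members whose promoters held a palindromic cAMP response element or a CArG box, and for Dusp7, the member with the highest level. Each is written 5′ to 3′ on the gene's strand, with bases in capitals where TGACGTCA or TGACG (full and partial cAMP response element), CACGTG (E-box), TGACTCA (AP-1 site) or the CArG box of serum response factor matched on either strand.
Dusp1: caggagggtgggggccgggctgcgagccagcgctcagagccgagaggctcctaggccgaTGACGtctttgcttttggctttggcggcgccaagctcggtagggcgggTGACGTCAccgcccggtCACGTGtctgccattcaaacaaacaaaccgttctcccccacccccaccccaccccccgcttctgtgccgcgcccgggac
Dusp5: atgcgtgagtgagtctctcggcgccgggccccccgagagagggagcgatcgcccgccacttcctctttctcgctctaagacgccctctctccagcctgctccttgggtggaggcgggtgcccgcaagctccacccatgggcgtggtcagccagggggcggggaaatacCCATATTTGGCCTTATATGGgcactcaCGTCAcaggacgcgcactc
Dusp7: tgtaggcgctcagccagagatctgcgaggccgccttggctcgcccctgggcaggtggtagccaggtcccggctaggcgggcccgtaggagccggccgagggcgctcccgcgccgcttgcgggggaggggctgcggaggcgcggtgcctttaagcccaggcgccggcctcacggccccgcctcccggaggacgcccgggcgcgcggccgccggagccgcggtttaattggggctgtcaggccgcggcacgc
Dusp8: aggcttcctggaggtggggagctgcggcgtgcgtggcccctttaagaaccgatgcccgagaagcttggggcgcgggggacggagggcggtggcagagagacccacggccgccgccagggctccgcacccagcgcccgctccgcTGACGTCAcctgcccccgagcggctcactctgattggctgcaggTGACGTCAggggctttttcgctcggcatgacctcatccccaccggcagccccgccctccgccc
The Dusp1 run lies at chr17:26508520-26508722 on the minus strand and holds 1 TGACGTCA 143 bases before the start, overlapping a pair of the 3 TGACG matches, and 1 CACGTG at 126 bases. The Dusp5 run, chr19:53528895-53529108 on the plus strand, holds 2 adjoining CArG boxes at 82 and 72 bases and 1 TGACG at 55 bases. The Dusp8 run, chr7:142095285-142095534 on the minus strand, holds 2 copies of TGACGTCA at 107 and 63 bases. None of these letters occurs in the Dusp7 run, chr9:106368382-106368631 on the plus strand. Among 32851 promoters cut to the same 250 bases, TGACGTCA occurred in 1.55%, TGACG in 17.8%, CACGTG in 6.02%, TGACTCA in 4.46% and the CArG box in 1.47%. These matches describe letters only, and whether a factor was bound there was not measured.

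Libraries held 27494852 to 35527197 reads counted on genes at 24 months and 22967222 to 36162431 at 30 months, so a member near 1 CPM (counts scaled to the reads on genes of each library) rests on few reads, 19 to 54 per library for Dusp9, and Dusp1 on 1064 to 6899. Keratins of the epidermis (Krt5, Krt14, Krt10 and Krt1) summed to 13334 to 24470 CPM in the 30-month and 17212 to 23568 CPM in the 24-month libraries, as skin would have them. Markers of skeletal muscle (Ckm, Acta1, Myh4 and Tnnt3) ranged from 256 to 4742 CPM, so muscle transcript differed widely between clips. In a bulk biopsy, fewer cells of a type and less RNA per cell cannot be told apart.

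Dusp1 stood apart from the other members in its difference between the ages. Dusp1 (ENSMUSG00000024190, chr17:26505590-26562128) encodes a nuclear phosphatase of p38, JNK and ERK and is an early response gene, induced within minutes by growth factors, stress and glucocorticoids. Its level was 36.4 CPM at the lowest, 40.8 at the median and 72.5 at the highest at 24 months, against 60.4, 74.5 and 222 CPM at 30 months. All 8 mice had more Dusp1 in the second biopsy, and 7 of the 24-month libraries lay below every 30-month library, the 24-month library of mouse 14 being the exception. Group means were 46.6 ± 12.6 and 93.8 ± 53.9 CPM (SD, n = 8), and the paired edgeR fit gave a log2 fold change of 0.91 (SE 0.14), which is 1.88-fold. Within single mice the log2 change ran from 0.29 in mouse 43, at 58.4 and 71.6 CPM, to 1.61 in mouse 14, at 72.5 and 222 CPM. Mouse 14 had the highest Dusp1 at both ages, and without it the log2 fold change was 0.81.

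The other inducible nuclear members differed less between the ages. Dusp2 (ENSMUSG00000027368, chr2:127336159-127338376), best known from activated blood cells, was near the limit of these libraries, with 28 to 144 reads in each. Its lowest, median and highest levels were 0.998, 1.37 and 1.88 CPM at 24 months and 1.03, 1.47 and 4.54 CPM at 30 months, with 4 of 8 mice higher and a fitted log2 fold change of 0.22 (SE 0.30). The highest of these values belonged to mouse 50, and without that mouse the log2 fold change was -0.05. Dusp4 (ENSMUSG00000031530, chr8:34807297-34819894), a phosphatase of ERK and JNK, had 2.79, 4.18 and 5.35 CPM at 24 months and 3.92, 4.74 and 8.72 CPM at 30 months. In 6 of 8 mice the second value was the higher one, the fitted log2 fold change was 0.32 (SE 0.16), and the groups overlapped. Dusp5 (ENSMUSG00000034765, chr19:53529109-53542431) acts on ERK alone and holds it in the nucleus. Its levels were tight at 24 months, at 14.1, 15.4 and 17.1 CPM, and spread at 30 months to 12.9, 17.4 and 23.2 CPM. The SD was 0.987 CPM at the first biopsy and 3.39 CPM at the second, and 4 of the 30-month libraries exceeded every 24-month one while others fell among them. The log2 fold change of Dusp5 was 0.16 (SE 0.11), and 0.08 without mouse 29. Of its annotated exon bases, 22.1% are shared with the antisense transcript AC137853.2, and the library kit does not mark strand, so part of the Dusp5 signal is uncertain.

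**Figure D1:**
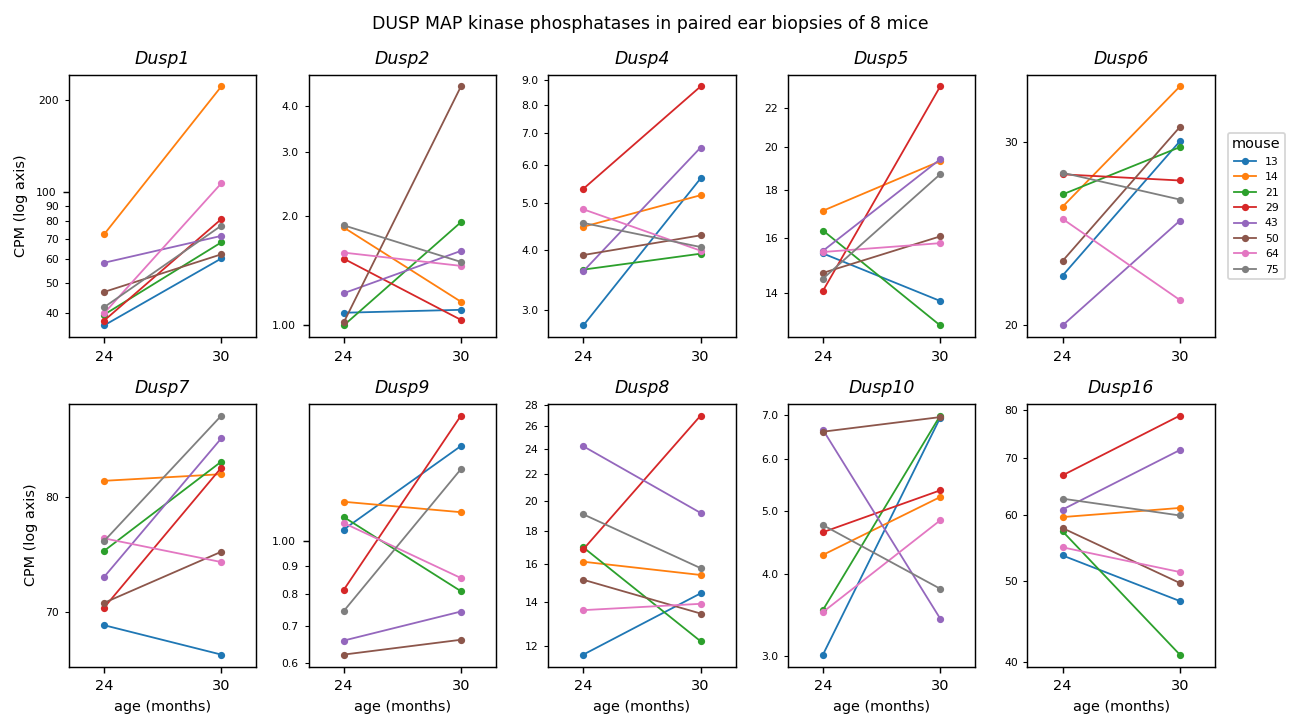
Level of each DUSP member in CPM on a log axis at 24 and 30 months, with 1 line for each of the 8 mice. Dusp1 lines all climb, from 36.4 to 72.5 CPM up to 60.4 to 222 CPM, whereas Dusp8 and Dusp16 lines cross.

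The cytoplasmic members that prefer ERK showed small differences between the ages, with overlapping groups. Dusp6 (ENSMUSG00000019960, chr10:99263231-99267489), whose transcription follows ERK activity and which closes that feedback loop, had 19.99, 25.6 and 28.0 CPM at 24 months and 21.2, 28.6 and 33.9 CPM at 30 months. In 5 of 8 mice the second value was the higher one, for a fitted log2 fold change of 0.17 (SE 0.091). Dusp7 (ENSMUSG00000053716, chr9:106368632-106375724), its close relative, was the steadiest member. It had 68.9, 74.0 and 81.5 CPM at 24 months and 66.6, 82.4 and 87.9 CPM at 30 months, with 6 of 8 mice higher and a fitted log2 fold change of 0.10 (SE 0.054). Its biological coefficient of variation between libraries after age and mouse was 0.101, lower than that of all but 1.63% of the genes tested, where the median was 0.180. Dusp9 (ENSMUSG00000031383, chrX:73639419-73643514), known for its role in the placenta, was the scarcest member with 19 to 54 reads per library. Its levels were 0.622, 0.932 and 1.18 CPM at 24 months and 0.661, 0.992 and 1.69 CPM at 30 months, and its log2 fold change was 0.24 (SE 0.19), with 5 of 8 mice higher, and was 0.12 without mouse 29 and 0.16 without mouse 75.

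The members that prefer JNK and p38 showed no shared direction. Dusp8 (ENSMUSG00000037887, chr7:142079490-142095843), known from brain and heart, had 11.6, 16.5 and 24.2 CPM at 24 months and 12.2, 14.9 and 27.0 CPM at 30 months. In 3 of 8 mice the second value was the higher one, for a fitted log2 fold change of -0.04 (SE 0.12) that became 0.03 without mouse 21. Dusp16 (ENSMUSG00000030203, chr6:134715468-134792625), a JNK phosphatase that moves between nucleus and cytoplasm, had 53.6, 58.7 and 66.8 CPM at 24 months and 40.9, 55.6 and 78.7 CPM at 30 months. Its mean hardly differed, with a log2 fold change of -0.07 (SE 0.082), while its SD was 4.28 CPM at the first biopsy and 12.8 CPM at the second. Dusp10 (ENSMUSG00000039384, chr1:184013302-184075636), a phosphatase of p38 and JNK, had 3.02, 4.46 and 6.65 CPM at 24 months and 3.42, 5.31 and 6.995 CPM at 30 months. Among these 3 members its change was the least alike between mice, from a log2 change of -0.87 in mouse 43 to 1.08 in mouse 13, around a fitted log2 fold change of 0.25 (SE 0.22) that was 0.42 without mouse 43 and 0.12 without mouse 13.

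**Figure D2:**
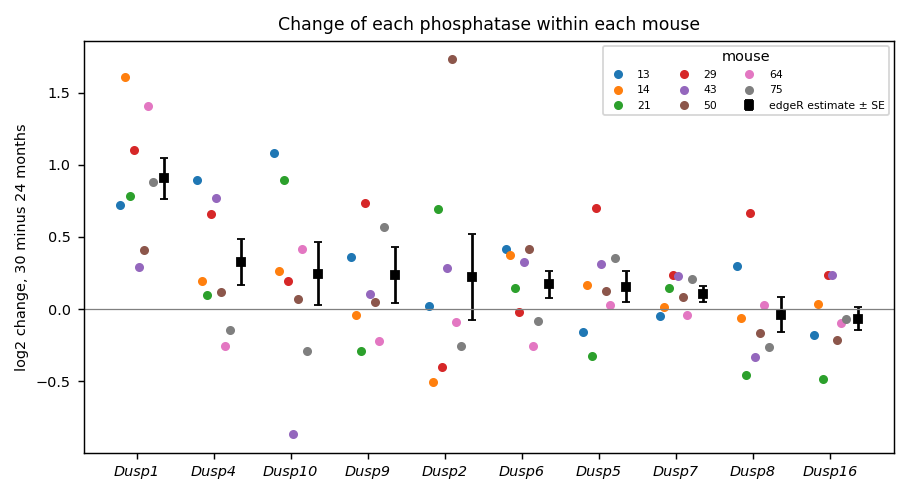
Log2 change from 24 to 30 months of each member, with 1 point per mouse and the edgeR estimate with its standard error. Dusp1 is the member with every mouse above 0, with an estimate of 0.91, and the other estimates lie between -0.07 and 0.32.

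The fitted log2 fold change was above 0 for 8 of the 10 members, against 51.7% of all genes tested, and its median was 0.20 in the family and 0.01 over all genes. Dusp1 was the 1 member higher in 8 of 8 mice, as were 1.08% of the genes tested, and 0 were lower in 8 of 8, as were 1.69%. Of the 10 members, 5 were higher in at least 6 mice, against a background of 19.6%. For 0 members did every 30-month library lie above every 24-month library (background 0.0697%) or below it (0.125%). A log2 fold change as high as that of Dusp1 was reached by 1.02% of genes. With edgeR's quasi-likelihood test, 0 of 21526 genes passed an adjusted p of 0.05 (0.0%), so 0 members did. At an unadjusted p under 0.05, 4.86% of genes were higher, with 1 member (Dusp1) among them, and 7.18% lower, with 0 members. DESeq2 called 240 of the 21526 genes, 78 higher and 162 lower, with Dusp1 as the 1 member, among the higher ones. Since the members were chosen on this contrast, nothing is read from these shares or calls, and they are no test of the family.

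Levels were compared between members per kilobase of exon (RPKM), as the mean of both biopsies of a mouse. Dusp7 (22.9 ± 1.44 RPKM, SD, n = 8 mice) and Dusp1 (21.2 ± 9.69) led, followed by Dusp6 (8.46 ± 0.792), Dusp16 (7.49 ± 1.06), Dusp5 (6.62 ± 0.639) and Dusp8 (3.40 ± 0.719). Dusp4 (1.72 ± 0.373), Dusp10 (1.66 ± 0.264), Dusp2 (0.795 ± 0.255) and Dusp9 (0.367 ± 0.0858) were the lowest. Dusp7 and Dusp1 held 30.7% and 28.4% of the summed level of the 10 members, and Dusp9 held 0.492%. An ERK-preferring cytoplasmic enzyme and an inducible nuclear one thus made up most of the sum of these 10 genes, with other phosphatases not counted.

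Neighbours in this order were compared with an exact two-sided sign-flip test over mice, with p-values adjusted over the 9 neighbouring pairs. Dusp1 exceeded Dusp6 by 1.15 ± 0.43 on the log2 RPKM scale (SD, n = 8 mice, exact adjusted p = 0.0117, in 8 of 8 mice). The steps from Dusp16 to Dusp5 (0.17), Dusp5 to Dusp8 (0.96), Dusp8 to Dusp4 (0.95), Dusp10 to Dusp2 (1.02) and Dusp2 to Dusp9 (0.88) gave the same exact adjusted p, whose unadjusted value of 0.00781 is the smallest that 8 mice allow. The steps from Dusp7 to Dusp1 (0.28 ± 0.40, exact adjusted p = 0.105), Dusp6 to Dusp16 (0.18 ± 0.24, exact adjusted p = 0.1004) and Dusp4 to Dusp10 (0.05 ± 0.34, exact p = 0.648 before adjustment) did not exceed the spread between mice. In the second biopsies alone, the step from Dusp16 to Dusp5 was 0.063 (exact adjusted p = 0.0820) and no longer passed. The level of Dusp5 is uncertain in all mice alike, since 22.1% of its exon bases are shared with AC137853.2. A test over mice cannot see such an offset, so the small step from Dusp16 to Dusp5 is not settled by it. The exon length that divides each level is also the same in all mice, so an error in it would go unseen for any step. In CPM without length, Dusp5 over Dusp8 was 0.0051 (exact adjusted p = 0.961), Dusp6 over Dusp16 -1.13 and Dusp4 over Dusp10 -0.090, and the other steps kept their sign. The order of Dusp7 and Dusp1 depended on the biopsy: Dusp7 was higher by 0.68 (exact adjusted p = 0.0100) in the first biopsies and by -0.12 (exact adjusted p = 0.719) in the second. Without mouse 14 the mean difference was 0.41 (exact adjusted p = 0.0201), and without mouse 43 that of Dusp6 over Dusp16 was 0.24 (exact adjusted p = 0.0402).

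**Figure D3:**
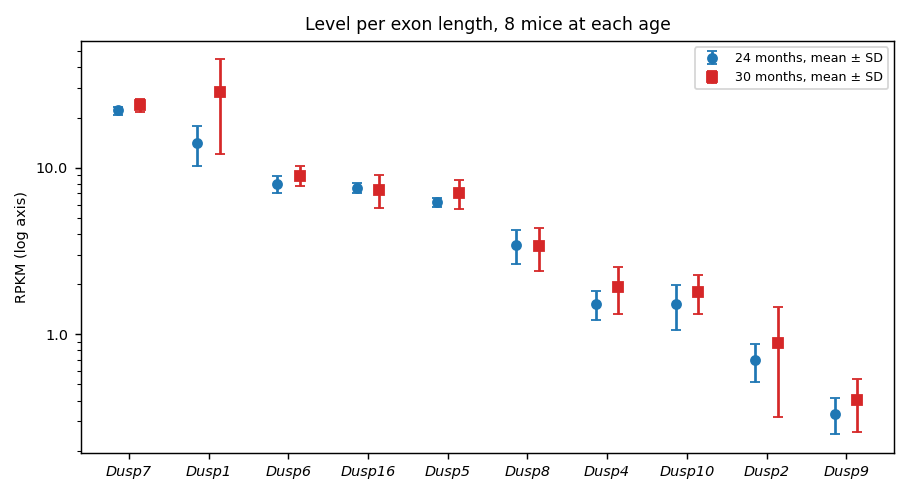
Level of each member in RPKM on a log axis, as the mean at 24 months (circles) and at 30 months (squares) with bars for the SD over 8 mice. Members are ordered by their mean over both ages, from Dusp7 at 22.9 RPKM to Dusp9 at 0.367 RPKM, and Dusp1 has the widest gap between the ages, at 14.1 and 28.3 RPKM.

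The summed level of the family was 65.4 ± 5.73 RPKM at 24 months and 83.8 ± 18.2 RPKM at 30 months (SD, n = 8), higher in 8 of 8 mice. Without Dusp1 it was 51.3 ± 2.71 and 55.5 ± 5.37 RPKM, higher in 7 of 8 mice. The share of Dusp1 in the sum was 17.9% to 28.5% in the 24-month libraries and 25.8% to 53.3% in the 30-month libraries.

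How the members varied from library to library, with the mean of each age removed, is given as a description over 16 libraries of 8 mice, which share animals and scaling. The rank correlation of the 45 pairs of members had a median of 0.12 and ran from -0.48 (Dusp5 with Dusp10) to 0.81, with 7 pairs above 0.5. The closest pair was Dusp8 with Dusp16 (Spearman 0.81, Pearson 0.79, and Pearson 0.80 without the most extreme 2 libraries), both phosphatases of JNK and p38. Here and below, the most extreme 2 libraries are those farthest from the median of the DUSP member, or of the first-named member of a pair. They were chosen anew for each such member, and extremes of the partner were kept. Dusp5 and Dusp16 followed (Spearman 0.69, Pearson 0.83, 0.60 without the 2 most extreme in Dusp5). Then came Dusp4 and Dusp16 (0.64, 0.71 and 0.56) and Dusp5 and Dusp7 (0.61, 0.55 and 0.88). Dusp4 and Dusp8 (0.57, 0.64 and 0.28) and Dusp5 and Dusp8 (0.56, 0.61 and 0.24) were far weaker without the most extreme 2 libraries. The 30-month library of mouse 29 had the highest Dusp4 (8.72 CPM), Dusp5 (23.2 CPM), Dusp8 (27.0 CPM), Dusp9 (1.69 CPM) and Dusp16 (78.7 CPM) of the 16. The median rank correlation of a member with the other 9 was highest for Dusp16 (0.49) and Dusp8 (0.37) and lowest for Dusp2 (-0.16), Dusp10 (-0.04), Dusp6 (0.05) and Dusp1 (0.09). Dusp1 ran from -0.18 with Dusp6 to 0.54 with Dusp5 and 0.49 with Dusp16. Its Pearson values rested on few libraries: without the most extreme 2, that with Dusp5 was 0.26, against 0.39 with them, and that with Dusp6 was -0.76, against 0.03.

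**Figure D4:**
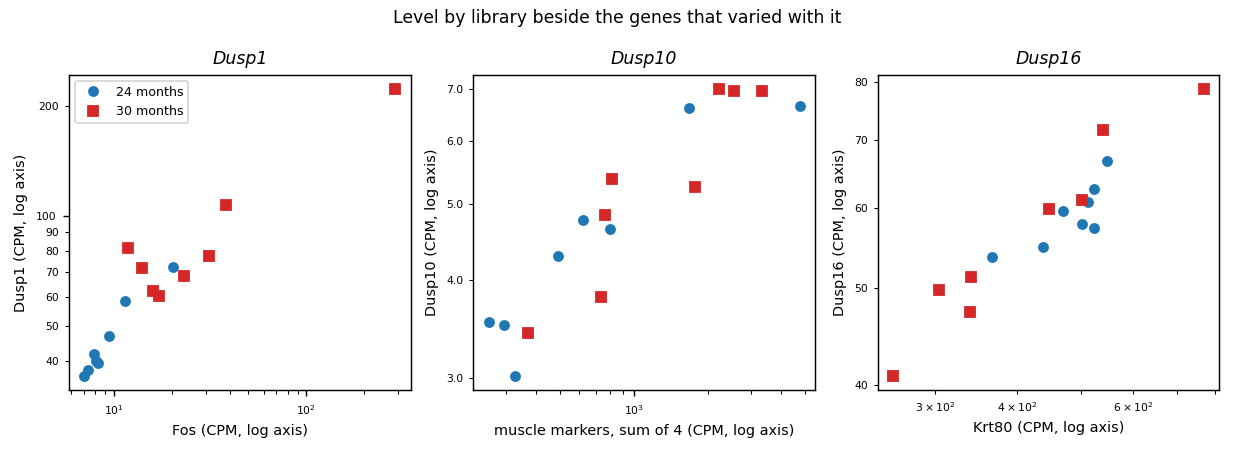
Levels in CPM on log axes in the 16 libraries (circles 24 months, squares 30 months) of Dusp1 against Fos, Dusp10 against the sum of 4 muscle markers and Dusp16 against Krt80. Points climb from left to right in each panel, and in the Dusp1 panel the library of mouse 14 at 30 months lies at 222 CPM of Dusp1 and 289 CPM of Fos.

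Among 17785 other genes with a mean of at least 1 CPM, the 3 closest by rank correlation were listed for the 4 members with the highest mean CPM. A maximum over so many genes is high by selection. Those of Dusp16 were C2cd2 (0.95), Krt80 (0.95), a keratin of differentiating epidermis, and Cgn (0.94), the tight junction protein cingulin. Krt80 had 367, 507 and 548 CPM at 24 months and 260, 394 and 770 CPM at 30 months, a spread that widened as that of Dusp16 did. With the summed epidermal keratins, Dusp16 had a rank correlation of only 0.14 (Pearson -0.22, and 0.65 without the most extreme 2 libraries). Among the 16 marker lists its lowest was -0.57 with fibroblast markers (Col1a1, Col1a2, Dcn and Pdgfra) and its highest 0.39 with sebaceous gland markers. Clip2 (0.94), Pdia4 (0.81) and Actb (0.80) were closest to Dusp6, and Slc52a3 (0.90), a riboflavin transporter, Gm8839 (0.86) and Gm28515 (0.81) to Dusp7. Those of Dusp1 were Pdlim2 (0.86), Tmem40 (0.84) and Rnf146 (0.84), but the Pearson value of Tmem40 was 0.33.

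Dusp1 was also set beside early response genes and glucocorticoid-responsive genes, since both kinds of signal are known to induce it. The rank correlation with Dusp1 had a median of 0.35 over the 24 immediate-early genes, from -0.20 (Nr4a3) to 0.75 (Fos), and of 0.44 over the 12 glucocorticoid-responsive genes, from 0.09 (Zbtb16) to 0.71 (Mt1). Both lists thus held genes close to Dusp1 and genes that were not. For Fos, a subunit of AP-1, the Pearson value was 0.92, and 0.64 without the most extreme 2 libraries. Egr1 had a Spearman value of 0.67 and Pearson values of 0.78 and 0.49, and Junb 0.54, 0.70 and 0.34. The early genes Ier3 and Klf2 had rank correlations of 0.12 and -0.07. The 30-month library of mouse 14, which had the highest Dusp1, also had the highest Fos (289 CPM), Egr1 (262 CPM), Junb (124 CPM) and Fosb (176 CPM) of the 16. For Sgk1 and Fkbp5, of the glucocorticoid-responsive list, the rank correlations with Dusp1 were 0.24 and 0.20, and Sgk1 in that library ranked 6 of 16. Others of that list were closer, as Errfi1 (0.60), Cdkn1a (0.57), Mt2 (0.57), Per1 (0.56) and Sult1a1 (0.54). Errfi1 was also listed among the feedback inhibitors of ERK described below. Which signal lay behind the Dusp1 values was not tested.

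Dusp10 was highest in the libraries with the most muscle transcript. Its rank correlation with the summed muscle markers was 0.93 (Pearson 0.92, and 0.91 without the most extreme 2 libraries), and over 8 mice the change of Dusp10 and of muscle ranked with 0.90. Macrophage markers (Cd68, Adgre1, Csf1r and Mrc1) ran the opposite way, with a rank correlation of -0.90 for the change over mice and -0.59 over libraries (195 to 347 CPM at 24 and 182 to 525 CPM at 30 months), and endothelial markers had 0.68 over libraries. The muscle sum ran from 256 to 4742 CPM at 24 months and from 369 to 3319 CPM at 30 months, all 4 markers were above 0 in every library, and the sum was the higher one in 7 of 8 second biopsies. The part of these cell types in the Dusp10 values was not tested. For Dusp1 the rank correlation with muscle was 0.03 and with the epidermal keratins -0.22, and its farthest was -0.67 with pigment cell markers (Dct, Tyr, Tyrp1 and Pmel; Pearson -0.32, and -0.35 without the most extreme 2 libraries). The pigment sum was 72.9 to 151 CPM at 24 months and 26.2 to 97.3 CPM at 30 months, lower in 7 of 8 mice, and its part in the Dusp1 values was not tested.

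The other genes of the pathway were tested in the same edgeR fit with p-values adjusted over all genes, and 0 of the tested genes of any list passed. DESeq2, which called 78 of all 21526 genes higher and 162 lower, called genes of the immediate-early and glucocorticoid-responsive lists, and 0 in the other 6. The counts at an unadjusted p under 0.05 in edgeR stand beside 4.86% higher and 7.18% lower over all genes tested. A list with 1 or 2 such genes is too small to be set apart from these shares. Of 14 MAP kinases, 2 were higher and 0 lower at an unadjusted p under 0.05, and the median log2 fold change was 0.07. Mapk13, a p38 isoform abundant in keratinocytes, had 169 ± 4.80 CPM at 24 months and 215 ± 74.9 CPM at 30 months (SD, n = 8, higher in 7 mice, edgeR adjusted p = 0.413). Mapk12, a p38 isoform abundant in muscle, had a log2 fold change of 0.32 (SE 0.20, edgeR adjusted p = 0.541). The 7 MAP kinase kinases, which phosphorylate MAP kinases, had 0 in either direction and a median of 0.01.

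Further up the cascade, 27 of 28 genes of Ras and the MAP3 kinases were tested, with 2 higher, 0 lower and a median of 0.01. Map3k6 and Map3k5, stress-activated kinases above JNK and p38, had log2 fold changes of 0.52 (SE 0.19, edgeR adjusted p = 0.346) and 0.29 (SE 0.10, edgeR adjusted p = 0.327), and Map3k12 one of -0.20 (SE 0.094, edgeR adjusted p = 0.439). Of the 9 tested Sprouty, Spred and related feedback inhibitors of ERK, 0 were higher and 1 lower, with a median of 0.08. Kinases and factors below MAP kinases numbered 25, with 4 higher, 2 lower and a median of 0.04. Among them Elk4 and Elk3, partners of serum response factor, had log2 fold changes of 0.27 (SE 0.085, 8 of 8 mice) and 0.32 (SE 0.12, 7 of 8), and Mapkapk2, the p38 target, one of 0.20 (SE 0.066, 7 of 8), with edgeR adjusted p-values of 0.297, 0.333 and 0.316.

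The immediate-early genes held more genes at an unadjusted p under 0.05 than the other lists: 11 of 24 were higher and 0 lower, 6 were higher in 8 of 8 mice, and the median was 0.21. Over all genes tested, 4.86% were higher and 7.18% lower, 1.08% were higher in 8 of 8 mice, and the median was 0.01. Fos had 9.97 ± 4.36 and 55.2 ± 95.0 CPM (log2 fold change 1.56, SE 0.35, edgeR adjusted p = 0.222) and Egr1 60.0 ± 16.6 and 119 ± 69.1 CPM (0.85, SE 0.16, edgeR adjusted p = 0.156). Fosb, another AP-1 subunit, had 10.4 ± 6.58 and 34.8 ± 57.4 CPM (0.96, SE 0.33, higher in 7 of 8 mice, edgeR adjusted p = 0.321). The 30-month library of mouse 14 carried much of these means: without it they were 21.7 CPM for Fos, 14.7 for Fosb and 99.0 for Egr1, and without that mouse the log2 fold changes were 1.25, 0.69 and 0.75. DESeq2 called 7 of this list: Fos, Junb, Egr1, Ier2, Ier3, Myc and Klf2. The list was drawn up with earlier results of these data known and overlaps in its signals with Dusp1, so it is no independent evidence of direction.

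Of the atypical DUSPs and other MAP kinase phosphatases, relatives without the kinase-binding domain of the family or of other phosphatase classes, 17 of 18 were tested. At an unadjusted p under 0.05, 0 were higher and 1 lower, and the median was -0.01. That one was Dusp11, an RNA phosphatase, at 253 ± 10.1 and 229 ± 21.5 CPM (lower in 7 of 8 mice, edgeR adjusted p = 0.402). Dusp13, a muscle and testis gene, had a log2 fold change of 0.54 (SE 0.35, edgeR adjusted p = 0.544) and the pseudophosphatase Styx one of -0.21 (SE 0.11, edgeR adjusted p = 0.470). The 12 glucocorticoid-responsive genes had 3 higher and 0 lower and a median of 0.30, which was 0.08 without mouse 29. Sgk1 had 156 ± 11.6 and 267 ± 142 CPM (higher in 8 of 8 mice, edgeR adjusted p = 0.269) and was the 1 gene of the list called by DESeq2. Mt1, a metallothionein, and Sult1a1, a sulfotransferase, had log2 fold changes of 0.36 (SE 0.14, edgeR adjusted p = 0.346) and 0.35 (SE 0.18, edgeR adjusted p = 0.459). Mouse 29 had the highest 30-month value of these 3 genes and of Mapk13 and Map3k6, and without it the log2 fold changes were 0.48 (Sgk1), 0.23 (Mt1), 0.20 (Sult1a1), 0.16 (Mapk13) and 0.32 (Map3k6).

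**Figure D5:**
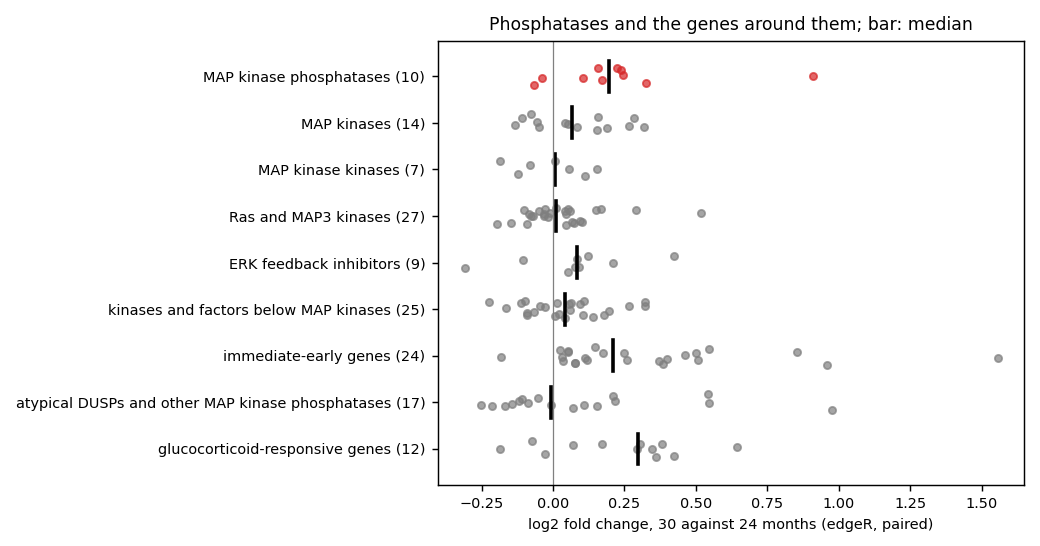
Log2 fold change of each tested gene (30 against 24 months, edgeR) in the DUSP family and in 8 lists of the pathway, as 1 point per gene, with a thick bar at the median of each list and a thin line at 0. Numbers in brackets count the genes tested. The medians of the kinase lists lie between 0.01 and 0.07, those of the DUSP family and of the immediate-early genes at 0.20 and 0.21, and that of the glucocorticoid-responsive genes at 0.30.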

How the data were processed

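Total RNA of ear clips was sequenced in 16 libraries from a kit that does not mark strand. Per the submitters' processing notes, the authors used CASAVA 1.8.4, TopHat2 2.1.0, mm10 and HTSeq 0.6.1p1, and the values they deposited are raw counts of reads per gene. The strand setting of the counting was not given in the sources used here. The 5 rows naming no gene (18.7% to 21.1% of each library) were left out. Of 45706 gene rows, 45143 matched GENCODE M21 (GRCm38), which gave symbols, positions and exon lengths.

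Counts were fitted in R 4.3.3 with edgeR 4.0.16 (TMM, filterByExpr, quasi-likelihood test), the mouse being a block because both libraries of a number come from 1 animal in the study's sample sheet. As a check of the pairing, residuals about each age mean correlated with a median of -0.02 for libraries of 1 mouse and -0.0064 for libraries of unlike mice. Values within a mouse ran from -0.45 to 0.25. Libraries of 1 mouse were thus no more alike than others, and the pairing rests on the sample sheet alone. Adjusted p-values are Benjamini-Hochberg values over 21526 genes with a threshold of 0.05. CPM values use TMM library sizes, and log2 RPKM a pseudocount of 0.1. DESeq2 1.42.0, DESeq2 size factors, no filter, no mouse term, age as a number and leaving out each mouse were alternatives. The edgeR fit was tested on simulated data. In each pathway list, up to 3 genes that moved the same way in at least 7 mice were named, those with the largest changes, and, for the 4 members of highest mean CPM, the 3 genes with the highest Spearman correlation. A gene that this rule named is not reported here. Dusp members and all lists were chosen with earlier results of these data known.

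Level orders and correlations were computed in Python 3.11.15 with scipy 1.17.1 and pandas 2.3.3. Promoter windows came from RefSeq, leaving out bases in annotated protein-coding exons.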

Additional observations from a re-analysis of the deposited data

Results flagged for a closer look

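In 3 of 30 groups of 8 values (the CPM of each member at each age and its log2 change), the highest library lay farther from its nearest neighbour than Dixon's 95% limit. The changes are computed from the CPM values, so the groups are not independent and no count by chance is set beside this. The limit only marks libraries to look at and is no test. Dusp1 at 30 months was 222 CPM in mouse 14, with the next library at 107 CPM and the lowest at 60.4 CPM. The same library had the highest CPM of Fos, Egr1, Junb and Fosb. Dusp2 at 30 months was 4.54 CPM in mouse 50, with the next at 1.92 CPM and the lowest at 1.03 CPM. Dusp8 at 30 months was 27.0 CPM in mouse 29, with the next at 19.2 CPM and the lowest at 12.2 CPM. All 3 lay in second biopsies.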

How the results depend on the processing

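The log2 fold change of Dusp1 was 0.91 to 1.01 under the other settings and 0.81 to 1.003 without one mouse. Those of Dusp4, Dusp5, Dusp6, Dusp7, Dusp9 and Dusp10 stayed above 0 under every setting, whereas Dusp2 (-0.05 to 0.35), Dusp8 (-0.14 to 0.03) and Dusp16 (-0.11 to 0.00) reached or crossed 0 when 1 mouse was left out. The count of genes past an adjusted p of 0.05 was 0 with edgeR, 240 with DESeq2's Wald test and 3 without the mouse as a block. DESeq2 called 7 immediate-early genes and 1 glucocorticoid-responsive gene. Unadjusted counts without one mouse were 764 to 1927 higher and 998 to 1845 lower, and 1708 higher without the block. The pairing changed no other call in the lists.

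In the level order, Dusp7 over Dusp1 was 0.68 in first and -0.12 in second biopsies and 0.24 to 0.41 without one mouse, and Dusp16 over Dusp5 was 0.063 in second biopsies, where its call was lost. In CPM without length, Dusp6 over Dusp16 was -1.13, Dusp5 over Dusp8 0.0051 and Dusp4 over Dusp10 -0.090. Without one mouse, Dusp4 over Dusp10 was -0.019 (mouse 29) to 0.14 and Dusp6 over Dusp16 0.13 to 0.24. With the age means kept, the median rank correlation was 0.23 over 45 pairs and 0.30 for Dusp1. With them removed, these were 0.12 and 0.09, and without one mouse 0.081 to 0.20 and 0.081 to 0.21. The causes were not tested. Depth limits Dusp2 and Dusp9, with 28 and 19 reads in their poorest libraries.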
